A study of Mus musculus with 6 samples.

Results

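The genes described here are 9 members of the EGF receptor system in PA6 cells, a mouse stromal line on which embryonic stem cells are grown: the ligands HBEGF, AREG, EREG, BTC, TGFA and NRG1, the receptors EGFR and ERBB2, and the intracellular receptor inhibitor ERRFI1. They were taken as every probe of the array whose gene name is one of these, which gave 16 of 45281 probes and 9 of 30854 gene names. Confluent monolayers of pure PA6 cells were kept for 3 h without serum, either with no growth factor (-GFs), with recombinant FGF2 at 20 ng/ml, or with recombinant BMP4 at the 10 ng/ml stated in the labels (the methods on the co-cultures give a lower dose). Each group held 2 biological replicates, numbered 1 and 2 in the sample titles, and RNA was hybridized to 6 Illumina bead arrays, 1 per culture. PA6 is a single line, so the spread between arrays is that between cultures of this line, and fewer cells of a kind and less RNA per cell cannot be told apart in RNA of whole wells.

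The EGF family ligands are made as membrane-bound precursors, and proteases of the ADAM family release their soluble domains. A ligand binds EGFR or a related receptor, the receptors pair with each other, with ERBB2 as the partner that has no ligand of its own, and the kinase activity of the pair feeds the RAS and ERK cascade. ERRFI1, also called MIG6, binds the kinase domain of the receptors and blocks it, and its own transcription is known to follow receptor activity. In connective tissue, fibroblasts and stromal cells are known to carry EGFR and to release ligands such as HBEGF to neighbouring cells.

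HBEGF, which codes for heparin-binding EGF-like growth factor, was higher in presence of FGF2 (2.78-fold against -GFs) and was the 1 member that passed both thresholds of the study. BTC (betacellulin) was 1.85-fold higher as fitted and passed the adjusted p but not the fold threshold. In the main fit, which does not pair arrays by replicate number, EGFR, ERBB2, NRG1 and ERRFI1 passed neither threshold with FGF2 against -GFs. With the replicate number in the fit NRG1, ERRFI1 and the brightest probe of EGFR passed the adjusted p alone, as did 37.7% of all genes. The other EGFR probes retained did not pass. With BMP4 no member passed either threshold, though HBEGF and BTC lay near or under the detection limit both with BMP4 and without growth factors and could hardly be compared there. AREG, EREG and TGFA were not measurable.

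A probe counted as detected on an array when its detection p-value, the chance of so bright a signal among the negative control beads of that array, was under 0.05, and as retained when 1 group or more had it detected on both arrays. Of the 16 probes 8 were retained (50%, against 35.6% of all probes), and they measured 6 of the 9 genes (66.7%, against 38.5% of all gene names). HBEGF and BTC were retained through the FGF2 arrays alone, since neither was detected on both arrays of another group. Values are log2 of the spline-normalized intensity of a gene's brightest retained probe unless raw intensity is named, and are compared between arrays for 1 probe and never between probes. The median raw intensity of the arrays lay between 153.4 and 168.1, and 15509 to 16459 probes were detected per array. The treatments showed in their known early targets, with EGR1 higher by 4.19 (log2) and DUSP6 by 3.55 in presence of FGF2 and ID1 higher by 2.77 in presence of BMP4. All 12 stromal markers, among them COL1A1, VIM, PDGFRA and CXCL12, were detected on all 6 arrays, and their summed linear signal was 188369 to 194059 in -GFs medium, 173817 to 182760 with FGF2 and 185343 to 199649 with BMP4. Of the markers of other cell types, 7 of 8 epithelial, 5 of 7 endothelial, 4 of 5 haematopoietic, 3 of 5 pluripotent and 4 of 5 neural genes were detected on no array, while CDH1, TEK and POU5F1 were detected on all 6 at raw intensities of 198.1 to 236.9, 201.9 to 353.6 and 194.4 to 248.4.

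The start-site sequences of RefSeq (GRCm38.p6, 250 bases before to 50 after each start) held 7 windows for 6 of the 9 genes, with 2 windows for Errfi1. They were searched on both strands for letters that AP-1 (TGANTCA), CREB proteins (TGACGTCA, the CRE), ETS factors (CCGGAAG), EGR proteins (GCGTGGGCG) and SRF (the CArG box) are known to bind. No match overlapped one of another motif. The CRE stood in 2 of the 7 windows, those of Areg and of the second Errfi1 start, and in 1.79% of all 32851 windows. The ETS letters stood in the Egfr window, on the reverse strand, and in 8.86% of all windows. The other motifs were in none of the 7 windows and in 7.81% (AP-1), 0.612% (EGR) and 1.63% (CArG box) of all. Of these, 3 windows are shown, that of Btc because its transcript was the measurable ligand other than HBEGF that differed most with FGF2, and those of Areg and Errfi1 because they share the CRE, printed in capitals. A match is a description of letters, not of a bound site. The Btc window lies at chr5:91402945-91403244 on the minus strand, the Areg window at chr5:91139349-91139648 and the Errfi1 window at chr4:150854820-150855119, both on the plus strand. The CRE begins 61 bases before the start of Areg and 51 bases before that of Errfi1.
Btc: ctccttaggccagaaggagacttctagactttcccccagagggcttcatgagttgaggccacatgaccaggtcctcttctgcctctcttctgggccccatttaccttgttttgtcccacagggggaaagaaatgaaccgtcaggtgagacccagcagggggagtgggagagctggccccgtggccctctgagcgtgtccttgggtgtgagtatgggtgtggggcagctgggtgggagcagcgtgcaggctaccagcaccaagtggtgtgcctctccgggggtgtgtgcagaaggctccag
Areg: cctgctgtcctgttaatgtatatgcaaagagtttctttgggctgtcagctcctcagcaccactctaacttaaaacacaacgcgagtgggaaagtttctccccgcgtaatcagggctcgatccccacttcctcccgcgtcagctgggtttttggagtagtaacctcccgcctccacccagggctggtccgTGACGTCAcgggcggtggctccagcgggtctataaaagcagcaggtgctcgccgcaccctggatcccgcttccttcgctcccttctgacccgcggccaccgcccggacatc
Errfi1: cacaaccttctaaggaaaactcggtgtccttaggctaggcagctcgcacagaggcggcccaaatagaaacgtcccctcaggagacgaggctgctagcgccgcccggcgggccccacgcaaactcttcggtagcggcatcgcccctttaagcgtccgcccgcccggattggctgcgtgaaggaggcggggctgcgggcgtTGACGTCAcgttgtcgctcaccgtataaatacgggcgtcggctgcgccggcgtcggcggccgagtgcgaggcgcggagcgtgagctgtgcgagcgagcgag

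HBEGF was bright in both cultures with FGF2 and near the detection limit elsewhere. Its log2 intensity was 7.38 and 7.64 in the -GFs cultures (replicates 1 and 2), 8.89 and 9.08 in those with FGF2, and 7.39 and 7.57 in those with BMP4. In raw intensity these were 173.5 and 192.4, 474.6 and 513.8, and 159.4 and 196.9. Both FGF2 cultures lay above the other 4, which overlapped each other. The probe was detected on both FGF2 arrays and, narrowly, on that of -GFs replicate 2, whose deposited detection value was 0.0449. Its detection value was 0.147 on the array of -GFs replicate 1 and 0.129 and 0.0556 on the BMP4 arrays, all above the limit.

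FGF2 raised HBEGF from 7.51 ± 0.19 to 8.98 ± 0.14 (SD, n = 2), a log2 fold change of 1.47 with a standard error of 0.17 and a 95% interval of 1.07 to 1.88 (limma, adjusted p = 0.00891). Of the -GFs arrays 1 of 2 measured HBEGF, so this fold rests in part on a signal not above background. The difference was 1.51 in replicate pair 1 and 1.44 in pair 2, and HBEGF ranked 91 from the top of the 11872 genes tested. A gene was called when its absolute log2 fold change was over 1 and its limma adjusted p under 0.1, and 2.28% of all genes tested were called higher with FGF2 (3.53% in either direction). Among the 6 members tested, 1 was called. Without FGF2 replicate 2 the fold change of HBEGF was 1.39 and the call ended. Such a fit, here and below, leaves 1 array in a group, which limits its precision for every gene. Under neqc, which subtracts a background estimated from the detection p-values, the fold change of HBEGF was 2.75. By the methods' t-test the adjusted p of HBEGF was 0.263, and no call was made. With 2 arrays against 2 the smallest two-sided p of an exact permutation test is 0.333, which was its value here. The former of these tests called no gene at all in any comparison, so its result does not set HBEGF apart from other genes. With BMP4 and in -GFs medium HBEGF was detected on 1 of the 4 arrays, so no fold is given between these groups.

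The arrays of FGF2 and BMP4 were also compared directly. There HBEGF was higher with FGF2 by 1.50 (standard error 0.17, interval 1.10 to 1.91, limma adjusted p = 0.00887). Because it was detected on neither BMP4 array, its mean level with FGF2 is stated as at least 2.64-fold that with BMP4, a bound against the lowest detected signal of each array. This bound and those below compare group means and take no account of the spread between arrays. In this comparison 2.02% of all genes were called higher with FGF2 (3.07% in either direction), and HBEGF was again the 1 member called. Without FGF2 replicate 2 the difference was 1.42 and the limma adjusted p 0.104.

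The genes nearest to HBEGF over the 6 arrays, by the Euclidean distance of their log2 values after each gene's mean was removed, were C630022N07RIK (0.204), TIMP1 (0.216) and 1 gene whose name in the table reads as a date. The median distance of all genes from HBEGF was 1.82. TIMP1 codes for a secreted inhibitor of metalloproteinases, and differed by 1.43 with FGF2 and by 0.01 with BMP4, each against -GFs on the log2 scale. These distances rest on 6 arrays and describe likeness of pattern only.

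**Figure D1:**
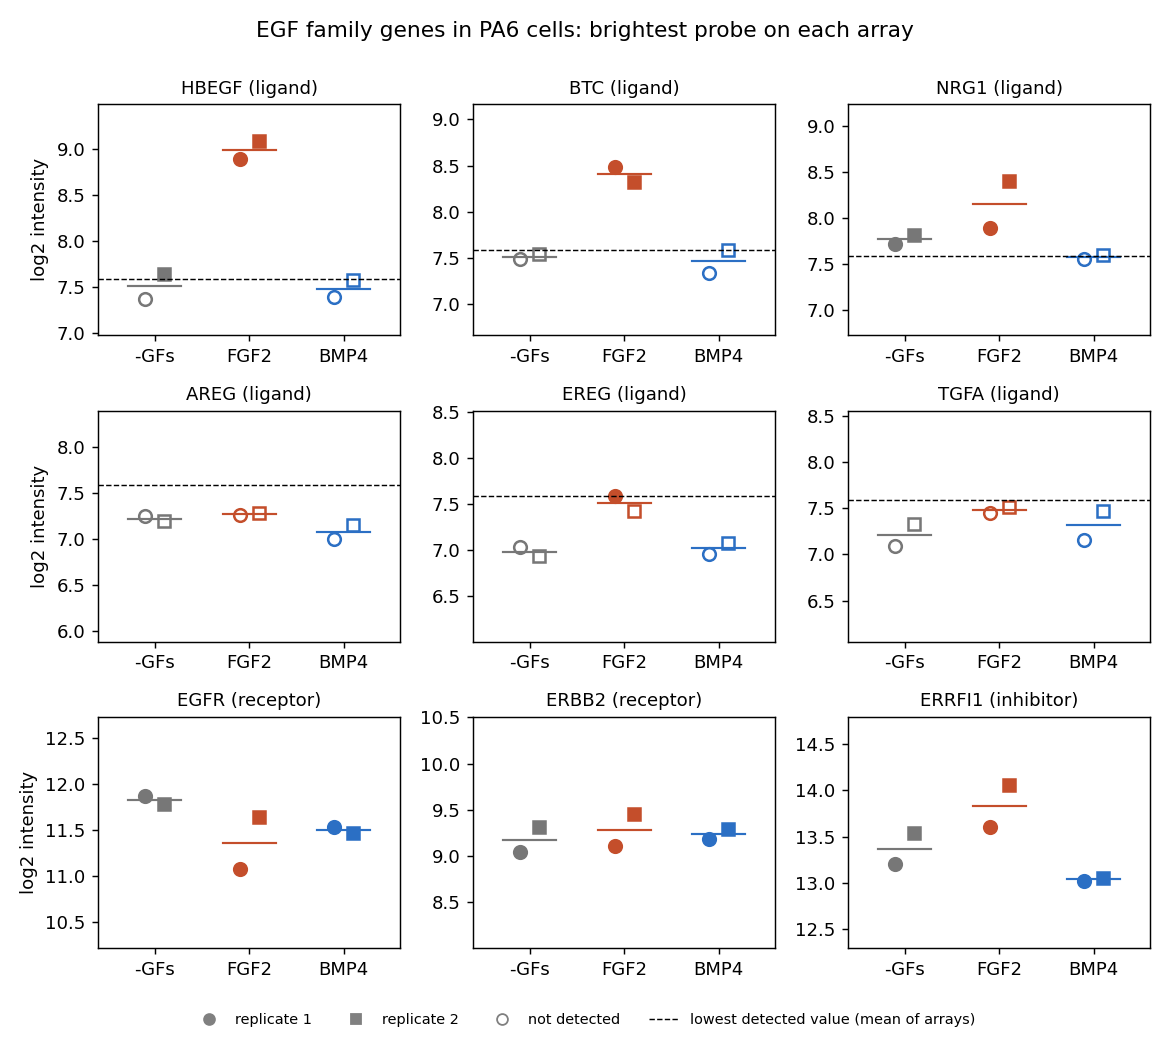
Log2 intensity (vertical axes) of the brightest probe of each of the 9 genes in -GFs medium, with FGF2 and with BMP4, with 1 point per array, circles for replicate 1, squares for replicate 2, horizontal bars for group means, open symbols for arrays without detection and a dashed line at the mean of the lowest detected values of the 6 arrays. The vertical axes start above 0 and differ between panels. The FGF2 points of HBEGF (8.89 and 9.08) and BTC (8.48 and 8.33) stand clear of the dashed line, while those of AREG and TGFA stay under it.

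BTC showed the same order of groups as HBEGF with a smaller difference. Its log2 intensity was 7.49 and 7.54 in the -GFs cultures, 8.48 and 8.33 with FGF2, and 7.34 and 7.59 with BMP4, from raw intensities of 188.3 and 179.7, 357.4 and 305, and 153.8 and 198.5. The FGF2 arrays were above all others and were the only 2 of the 6 on which BTC was detected. Such detection, on both FGF2 arrays and no other, occurred for 168 of all 45281 probes (0.371%), or 1.04% of those retained.

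Between -GFs and FGF2 the fitted difference of BTC was 0.89 (standard error 0.16, interval 0.51 to 1.27, limma adjusted p = 0.0274), with 0.998 in pair 1 and 0.78 in pair 2. It passed the adjusted p, as 11.8% of all genes did (6.03% as higher), and stayed short of the fold threshold. As BTC was undetected in -GFs medium, its mean level with FGF2 is stated as at least 1.76-fold that in -GFs medium. The bound against BMP4 was also 1.76-fold, and both leave out the spread between arrays. Against BMP4 the fitted difference was 0.94 (standard error 0.16, interval 0.56 to 1.32, limma adjusted p = 0.0270). BMP4 and -GFs cannot be compared for BTC, which was undetected on all 4 of their arrays. Under neqc the FGF2 difference was 1.90 and past both thresholds (limma, adjusted p = 0.0239). The limma adjusted p of BTC against -GFs was 0.103 without -GFs replicate 1, 0.179 without FGF2 replicate 1 and 0.157 without FGF2 replicate 2, at differences of 0.84, 0.81 and 0.99. Against BMP4 it was 0.179, 0.177 and 0.137 without FGF2 replicate 1, FGF2 replicate 2 or BMP4 replicate 1, while without BMP4 replicate 2 BTC passed both thresholds (1.08, limma adjusted p = 0.0794).

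In the RefSeq annotation of GRCm38.p6 the genes Epgn, Ereg, Areg and Btc follow each other on chromosome 5 with no other protein-coding gene between them, and their probes were set side by side after the values had been seen. EPGN (epigen, a further EGFR ligand) was, like BTC, detected on both FGF2 arrays and on no other. Its log2 intensity was 7.48 and 7.21 in the -GFs cultures, 7.83 and 7.74 with FGF2, and 7.41 and 7.29 with BMP4, and the FGF2 difference of 0.44 did not pass the test (limma, adjusted p = 0.162). EREG (epiregulin) was detected by 1 of its 2 probes on 1 array, that of FGF2 replicate 1 with a detection value of 0.0481, and the log2 intensity of this probe was 7.03 and 6.94 in the -GFs cultures, 7.59 and 7.43 with FGF2, and 6.96 and 7.08 with BMP4. The second EREG probe was detected nowhere, with raw intensities of 117.3 to 172.9, and was highest on the array of -GFs replicate 1. AREG (amphiregulin) was detected on no array, at raw intensities of 157.4 and 141.6 in the -GFs cultures, 153 and 156.8 with FGF2, and 121.9 and 148.1 with BMP4. EREG and AREG have only a bound near the detection limit here, and no test was made on them.

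TGFA, which codes for transforming growth factor alpha, was likewise detected on no array. Its raw intensity was 140.3 and 154.8 in the -GFs cultures, 174.2 and 183 with FGF2, and 135.6 and 184.2 with BMP4, so that the BMP4 values spanned those with FGF2.

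NRG1 (neuregulin 1, a ligand of ERBB3 and ERBB4) was detected on the -GFs and FGF2 arrays by 1 of its 4 probes, and the other 3 were detected nowhere. The log2 intensity was 7.71 and 7.82 in the -GFs cultures, 7.90 and 8.40 with FGF2, and 7.55 and 7.60 with BMP4. The 3 groups did not overlap, with FGF2 highest and BMP4 lowest. The SD of the 2 FGF2 cultures was 0.36, against 0.07 in -GFs medium and 0.03 with BMP4.

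The difference of NRG1 between FGF2 and -GFs was 0.38 (interval -0.08 to 0.85, limma adjusted p = 0.296), with 0.18 in pair 1 and 0.59 in pair 2. Leaving out the second FGF2 replicate gave 0.13 and leaving out the first gave 0.64, neqc gave 0.78, and none of these passed the test. NRG1 was undetected on both BMP4 arrays, and its bound on the group means, FGF2 against BMP4, was 1.48-fold. The fitted difference there was 0.57 (interval 0.11 to 1.04, limma adjusted p = 0.159) and did not pass the test. That difference was 0.33 without FGF2 replicate 2 and 1.27 under neqc. In the fit that blocks on replicate number the limma adjusted p was 0.0594 and 0.0079 for these comparisons. With BMP4 against -GFs the fitted difference of NRG1 was -0.19 (interval -0.66 to 0.28, limma adjusted p = 0.999), so no bound is given. Of all genes tested, 53.8% had groups that did not overlap between FGF2 and -GFs, 23.9% between BMP4 and -GFs and 52.8% between FGF2 and BMP4, so separation of 2 against 2 arrays is common here. Among the 6 members it was seen for 5 with FGF2 (HBEGF, BTC, NRG1, EGFR and ERRFI1), for 3 with BMP4 (NRG1, EGFR and ERRFI1), and for 4 between FGF2 and BMP4 (HBEGF, BTC, NRG1 and ERRFI1).

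EGFR, the receptor of HBEGF, BTC and most other ligands of the family, was detected on all 6 arrays by 3 of its 4 probes. By its brightest probe the log2 intensity was 11.86 and 11.78 in the -GFs cultures, 11.08 and 11.64 with FGF2, and 11.53 and 11.47 with BMP4. All 4 treated cultures lay below both -GFs cultures, and FGF2 replicate 1 was the lowest. The FGF2 difference was -0.46 (standard error 0.21, interval -0.95 to 0.03, limma adjusted p = 0.241), with -0.78 in pair 1 and -0.13 in pair 2. It was -0.18 without FGF2 replicate 1 and -0.73 without FGF2 replicate 2, and neither passed the test. The BMP4 difference was -0.32 (interval -0.81 to 0.17, limma adjusted p = 0.999), with -0.33 and -0.31 in the pairs. FGF2 and BMP4 differed by -0.14 (limma adjusted p = 0.765), and this value was 0.14 without FGF2 replicate 1.

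The probes of EGFR did not give one picture. On the second probe the log2 intensity was 10.04 and 10.95 in the -GFs cultures, 10.13 and 10.83 with FGF2, and 10.51 and 10.88 with BMP4, so that replicate 2 exceeded replicate 1 in every group and the groups overlapped. The third probe read 10.05 and 10.80, 10.13 and 10.59, and 10.21 and 10.87 in the same order, again with replicate 2 above replicate 1 in every group. The FGF2 difference was -0.01 on the second probe (standard error 0.35, limma adjusted p = 0.988 over all retained probes) and -0.07 on the third (standard error 0.33, limma adjusted p = 0.928). The fourth probe was detected on no array, with raw intensities of 161.2 to 195. The brightest probe alone therefore carries the lower values of EGFR with FGF2, and the mean of the 3 retained probes differed by -0.18. With BMP4 against -GFs the second and the third probe differed by 0.20 and 0.12, opposite in sign to the brightest, and the mean of the 3 by -0.0031.

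**Figure D2:**
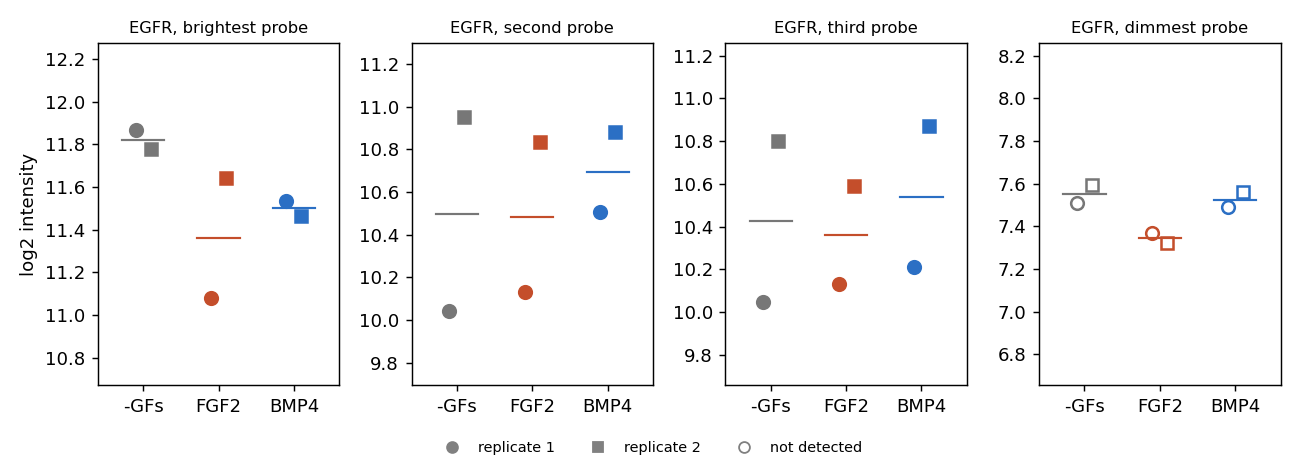
Log2 intensity (vertical axes, which start above 0 and differ between panels) of the 4 EGFR probes in -GFs medium, with FGF2 and with BMP4, with 1 point per array, circles for replicate 1, squares for replicate 2, bars for group means and open symbols for arrays without detection. On the second and the third probe the points separate by replicate number rather than by group, and on the brightest the 2 FGF2 arrays lie at 11.08 and 11.64.

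ERBB2, the receptor that pairs with EGFR, had the smallest differences of the 6 members in both comparisons with FGF2. Its log2 intensity was 9.05 and 9.31 in the -GFs cultures, 9.10 and 9.46 with FGF2, and 9.18 and 9.29 with BMP4, and all groups overlapped. The differences against -GFs were 0.10 for FGF2 (interval -0.33 to 0.54, limma adjusted p = 0.782) and 0.06 for BMP4 (interval -0.38 to 0.50, limma adjusted p = 0.999). FGF2 and BMP4 differed by 0.04 (limma, adjusted p = 0.929). ERBB3 and ERBB4, the receptors that bind NRG1 directly, were detected on no array.

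ERRFI1 was detected on all arrays. Its log2 intensity was 13.20 and 13.53 in the -GFs cultures, 13.61 and 14.06 with FGF2, and 13.02 and 13.06 with BMP4, which in raw intensity is 10599.8 and 11726.7, 12083.9 and 16266.5, and 7351.9 and 9089.1. The groups did not overlap, and the FGF2 cultures were the highest and the BMP4 cultures the lowest. Against -GFs the difference was 0.47 with FGF2 (standard error 0.20, interval -0.02 to 0.95, limma adjusted p = 0.231) and -0.33 with BMP4 (interval -0.82 to 0.16, limma adjusted p = 0.999), neither of which passed the test. In the pairs these were 0.41 and 0.53 with FGF2 and -0.18 and -0.48 with BMP4.

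Compared directly, ERRFI1 was 1.73-fold higher with FGF2 than with BMP4, a difference of 0.79 (standard error 0.20, interval 0.31 to 1.28) that passed the adjusted p (limma, 0.0822) and not the fold threshold. By the adjusted p alone 3 of the 6 members (HBEGF, BTC and ERRFI1) were higher with FGF2 than with BMP4, where 4.84% of all genes passed as higher and 9.06% in either direction. Without either FGF2 or either BMP4 array ERRFI1 no longer passed, with differences of 0.57 (FGF2 replicate 2 left out) to 1.03 (FGF2 replicate 1 left out) and limma adjusted p-values of 0.159 to 0.394. Since both comparisons with -GFs use the same -GFs arrays, the opposite signs of the FGF2 and BMP4 differences are not independent of each other.

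The fit with the replicate number as a block lowered the adjusted p of several members without adding a call. For FGF2 against -GFs the blocked limma adjusted p was 3.51e-07 for HBEGF, 0.000151 for BTC, 0.0215 for ERRFI1, 0.0392 for EGFR (lower with FGF2) and 0.617 for ERBB2. The EGFR value is that of its brightest probe alone. On the second and the third EGFR probe the blocked limma adjusted p, over all retained probes, was 0.960 and 0.766. By the adjusted p alone 5 of the 6 members passed with the block, NRG1 included, against 2 without it. In that blocked fit 37.7% of all genes passed the adjusted p alone, and 3.95% were called with the fold threshold. For FGF2 against BMP4 the blocked limma adjusted p was 2.82e-07 for HBEGF, 0.000101 for BTC and 0.000541 for ERRFI1, where 34.2% of all genes passed. With BMP4 against -GFs none of the 6 passed with the block, with limma adjusted p-values of 0.663 to 0.983, against 0.227% of all genes.

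BMP4 against -GFs gave no call among the 6 members, against 0.00842% of all genes tested. The fitted differences ran from -0.33 (ERRFI1) to 0.06 (ERBB2). Those of HBEGF and BTC set signals near or under the detection limit against each other. Without the block none had an unadjusted limma p under 0.05, with the block 1 had (ERRFI1, 0.0373), and the methods' t-test gave 1, that of EGFR. The 95% intervals reached as low as -0.82 (ERRFI1), so a fall of up to that size cannot be told apart from no change with 2 cultures per group.

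**Figure D3:**
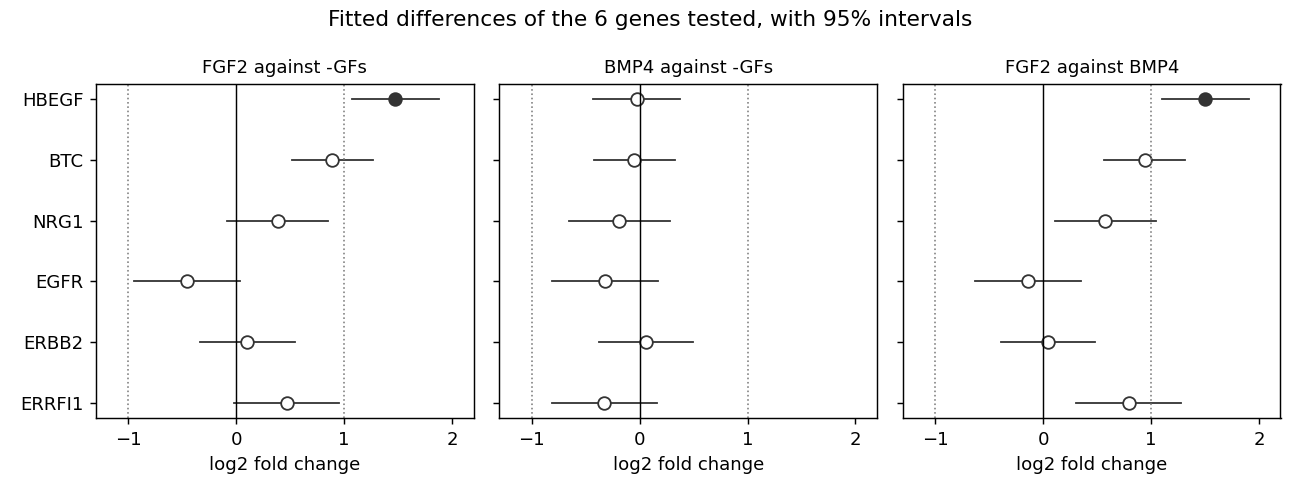
Log2 fold change (horizontal axes) of the 6 genes tested in each of the 3 comparisons (1 panel each, named above it), with points for the limma estimate, bars for its 95% interval, filled points for genes past both thresholds and dotted lines at a log2 fold change of 1 in either direction. HBEGF is the filled point in both panels with FGF2 (1.47 and 1.50), and all 6 intervals of BMP4 against -GFs include 0.

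Other genes of the EGFR pathway were taken from lists of further ligands, receptors, sheddases, adapters and negative regulators. The lists were chosen with earlier results of these data known, so their counts and medians describe the listed genes and test no list. Of 50 listed genes 48 were on the array and 32 were tested. With FGF2 against -GFs 4 were called higher and 1 lower, against 2.28% of all genes called higher and 3.53% called in either direction, the median log2 fold change of the 32 was 0.22, and that of all genes tested was -0.02. With BMP4 none was called (0.00842% of all genes). With FGF2 against BMP4 3 were called higher and 1 lower, where 2.02% of all genes were called higher and 3.07% in either direction.

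The negative regulators of the receptors, a list chosen with earlier results known, held 3 genes called higher among 12 tested, against 2.28% of all genes. LRIG1, a membrane protein known to lower EGFR levels, had a log2 intensity of 9.97 and 10.71 in the -GFs cultures, 11.47 and 12.08 with FGF2, and 9.73 and 10.49 with BMP4. Both FGF2 cultures were above all others, replicate 2 was above replicate 1 in every group, and the difference was 1.43 (standard error 0.36, limma adjusted p = 0.0670). The tyrosine phosphatases PTPN2 and PTPN12 rose by 1.27 and 1.28 (limma adjusted p = 0.0158 and 0.0337). PTPN2 read 8.30 and 7.99 in the -GFs cultures, 9.51 and 9.33 with FGF2 and 8.56 and 8.29 with BMP4, and PTPN12 read 9.39 and 9.11, 10.46 and 10.60, and 9.58 and 8.89. For both genes the FGF2 cultures were above the others, though the dimmer retained probes of PTPN12 differed by 0.28 and 0.22 only, and the mean of its retained probes by 0.59. Those dimmer probes were detected on the FGF2 arrays alone, so their differences, and in part that mean, rest on signals not above background. PTPN1, a further phosphatase of EGFR, differed by 1.05 and missed the adjusted threshold (limma, adjusted p = 0.102), while the fit with the replicate block called it (limma, adjusted p = 2.53e-05) and called it against BMP4 as well (1.01, 4.05e-05). SH3KBP1, which takes part in receptor endocytosis, passed the adjusted p alone at 0.91 (limma, adjusted p = 0.0990), and so did TNK2, a kinase that binds the receptor, at -0.67 (limma, adjusted p = 0.0479). The median of the 12 was 0.51 and 10 of them were higher with FGF2, as were 5643 of all 11872 genes, whereas CBL, LRIG2, PTPRJ, SPRY2 and USP8 were not retained. Without FGF2 replicate 2 each of the 3 calls ended, at differences of 1.12 (LRIG1), 1.36 (PTPN2) and 1.21 (PTPN12). They ended also without FGF2 replicate 1 (1.75, 1.18 and 1.35), for LRIG1 without -GFs replicate 1 (1.08) and for PTPN12 without -GFs replicate 2 (1.14). Each of these fits leaves 1 array in a group, and calls ended at differences both smaller and larger than in the full fit. The call of LRIG1 ended under neqc as well (1.54, limma adjusted p = 0.105). With the replicate block all 3 calls held (limma, adjusted p = 4.95e-07 for LRIG1, 2.01e-06 for PTPN2 and 1.60e-05 for PTPN12).

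Among 10 adapters and effectors tested 1 rose and 1 fell, against 3.53% of all genes called in either direction. EPS8, an EGFR substrate that acts on the actin cytoskeleton, had a log2 intensity of 7.87 and 8.25 in the -GFs cultures, 9.42 and 9.71 with FGF2, and 7.88 and 7.87 with BMP4, a difference of 1.50 with FGF2 (standard error 0.19, limma adjusted p = 0.0109). GAB1, a docking protein of activated receptors, read 10.92 and 11.28 in the -GFs cultures, 9.94 and 10.14 with FGF2, and 11.06 and 11.10 with BMP4, and fell by 1.06 (limma, adjusted p = 0.0230). For both genes the FGF2 cultures lay apart from the other 4, upward for EPS8 and downward for GAB1. GRB2 and SHC1, which link the receptor to RAS, differed by 0.02 and 0.04. Without FGF2 replicate 2 the limma adjusted p was 0.111 for EPS8 (at 1.36) and 0.149 for GAB1 (at -1.16). The call of GAB1 ended also without FGF2 replicate 1 (0.165, at -0.97) and without -GFs replicate 2, where the difference of -0.88 missed the fold threshold.

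None of the 8 sheddases and trafficking factors tested was called with FGF2. ADAM17, the main sheddase of HBEGF and AREG, differed by 0.13 and ADAM9 by 0.01 (limma, adjusted p = 0.803 and 0.988). By the adjusted p alone RHBDF1, which escorts ADAM17 to the cell surface, passed at 0.68 (limma, adjusted p = 0.0579), and BACE1, a protease that cleaves NRG1, at -0.73 (0.0665). ADAM10 was not retained. Of the further ligands EGF and EPGN were tested and not called. The 2 EGF probes disagreed in sign, since the retained one with the larger mean differed by 0.14 with FGF2 while the other read 7.57 and 7.69 in the -GFs cultures and 7.20 and 7.06, without detection, with FGF2.

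**Figure D4:**
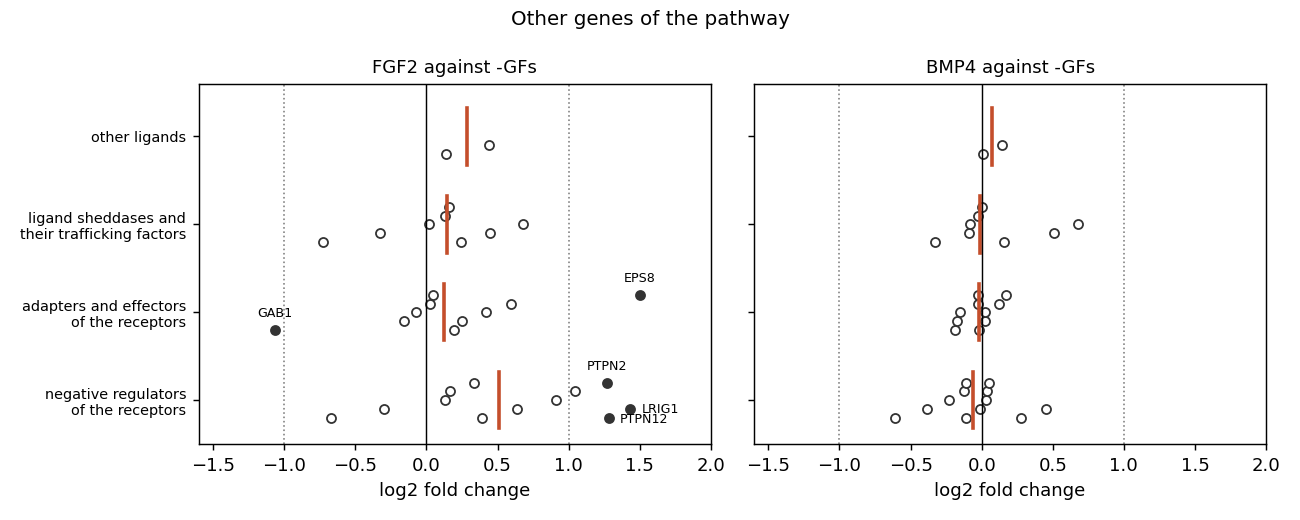
Log2 fold change (horizontal axes) of the 32 further pathway genes tested, by list, for FGF2 against -GFs and BMP4 against -GFs, with 1 point per gene, filled and named where past both thresholds, red bars for list medians and dotted lines at a log2 fold change of 1 in either direction. The negative regulators have the highest median with FGF2 among the lists (0.51), and no point of the BMP4 panel is filled. The lists were chosen with earlier results of these data known.

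Against BMP4 the called genes of these lists were EPS8 (1.69), LRIG1 (1.66) and PTPN12 (1.30), all higher with FGF2, and GAB1, lower with FGF2 at -1.04 (limma, adjusted p = 0.00876, 0.0519, 0.0375 and 0.0276). PTPN2 differed by 0.99, just short of the fold threshold (limma, adjusted p = 0.0332). Without FGF2 replicate 2 the calls of LRIG1, PTPN12 and GAB1 ended (limma, adjusted p = 0.318, 0.260 and 0.177), and without FGF2 replicate 1 as well (0.159, 0.179 and 0.180). The call of LRIG1 also ended without BMP4 replicate 1 (0.180), that of PTPN12 without BMP4 replicate 2 (0.125), and that of GAB1 without either (0.117 and 0.128). That of EPS8 held without each array in turn.

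**Figure D5:**
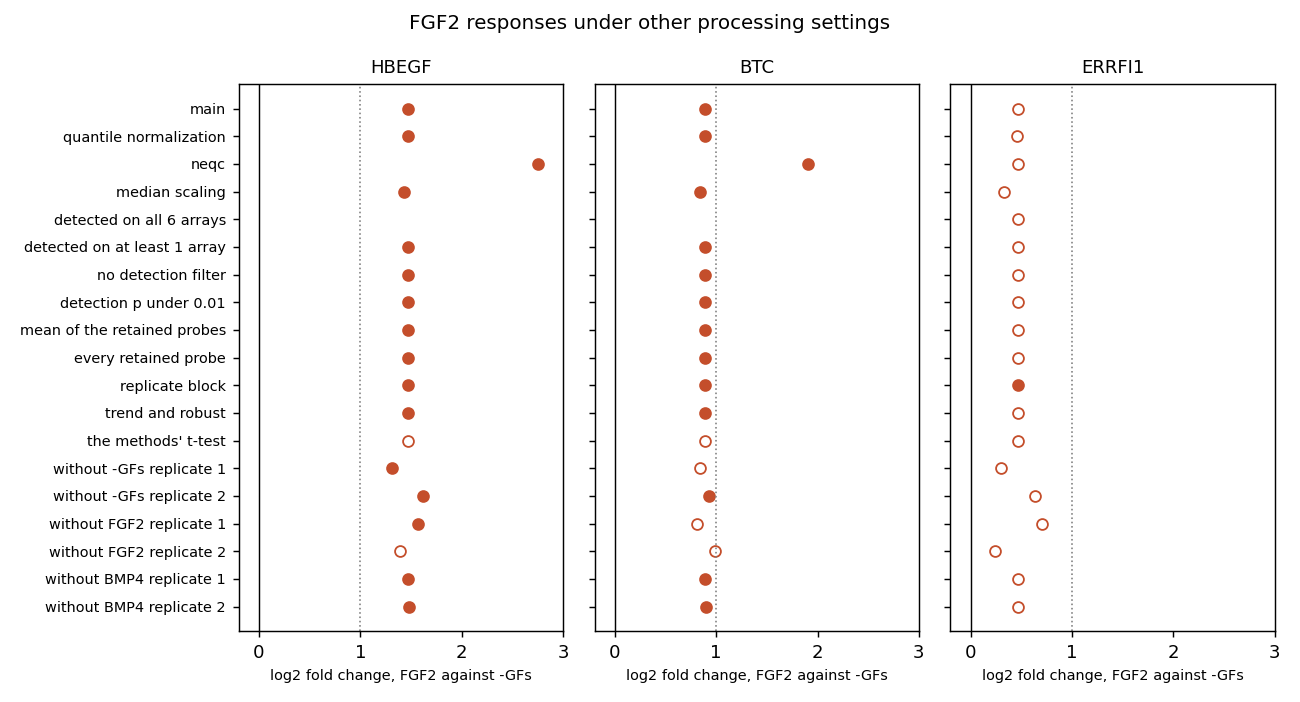
Log2 fold change with FGF2 against -GFs (horizontal axes) of HBEGF, BTC and ERRFI1 under each processing setting (rows), filled where the adjusted p was under 0.1 and open where it was not, with a dotted line at a log2 fold change of 1. HBEGF stays right of the line in every setting that retains it and is largest under neqc (2.75), BTC crosses the line under neqc (1.90), and all 19 points of ERRFI1 lie between 0.24 and 0.70.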

How the data were processed

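RNA of pure PA6 cultures (3 h, 2 replicates in each of 3 groups) was measured on 6 MouseWG-6 v2.0 BeadChips. The authors processed the scans with BeadStudio and GenomeStudio 2011.01 (named in the submitters' processing notes), and deposited the probe intensity before normalization and, beside it, a detection p-value. The table's 9 columns without a heading and 6 leftover lines were not used.

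Intensities were spline-normalized in R 4.3.3 (452 quantiles per array mapped to the mean of the 6 arrays) and converted to log2. The methods name a cubic spline run in GenomeStudio, and the R version was written anew, so values can differ from the authors' values. A probe was retained where the detection p was under 0.05 on both arrays of any group, and the brightest probe stood for its gene (11872 genes). limma 3.58.1 was fitted to all 6 arrays without a block (3 residual degrees of freedom), and p-values were adjusted by Benjamini-Hochberg over all these genes. The thresholds of the methods (log2 fold change past 1 in either direction, adjusted p under 0.1) defined a call. The number of arrays limits the precision.

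The sample titles number a replicate 1 and a replicate 2 in every condition, and arrays were paired by that number. The titles do not say what cultures of the same number shared. Same-numbered arrays deviated together from their group means (the deviations correlated across genes at 0.602 between -GFs and FGF2, 0.741 between -GFs and BMP4, and 0.579 between the treatments).

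The members, the pathway and marker lists and the tests were chosen with earlier results of these data known. All members, every called list gene, the checks EGR1, DUSP6 and ID1 and the 3 genes nearest to a called member were named, and other genes after their values were seen. Gene names are those of the array, and the script was tested on simulated data. The start-site sequences held no promoter window for HBEGF, EREG and NRG1. The alternatives were other normalizations (quantile, neqc, median scaling), detection filters, probe rules, the replicate block, a trended robust fit, the methods' t-test, no fold threshold and leaving out each array.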

Additional observations from a re-analysis of the deposited data

How the results depend on the processing

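Over 28 log2 fold changes, those of the 6 members and of the called pathway genes in the comparisons followed, the 19 alternatives set at the start gave 523 values, of which 467 kept their direction and side of the threshold, 38 lost the call, 8 gained it and 10 changed sign. The count of members called was 1 with FGF2 against -GFs and 1 against BMP4, where 419 and 364 of all genes were called. It became 2 and 2 under neqc (794 and 640 of all genes). With detection on all 6 arrays required it was 0 and 0 (382 and 320), as HBEGF, BTC and NRG1 are then not tested. By the methods' t-test after adjustment it was 0 and 0, as over all genes (0 and 0). Without a fold threshold it was 2 and 3 (1401 and 1076). Under 2 alternatives chosen after seeing the data it was 2 and 3 (neqc with the replicate block) and 5 and 4 (the block and no fold threshold, 4479 and 4058 of all genes). No count over all genes is set beside the neqc fit with the block, so its member counts are not read further. Leaving out 1 array changed the member counts too, in fits that leave 1 array in a group. At an unadjusted p under 0.05 and no fold threshold the methods' t-test counted 2 and 2 members (1784 and 1806 of all genes). For BMP4 against -GFs it counted 1 (434 of all genes), where the count by adjusted p stayed at 0.

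The replicate block left the member counts at 1 and 1 and gave 6 and 5 pathway genes for 5 and 4, with PTPN1 among those it called in both. Over all genes the block called 469 and 416, for 419 and 364. The pathway counts were 0 and 0 by the methods' t-test (0 and 0 of all genes) and 9 and 7 without a fold threshold (1401 and 1076). Under neqc with the block they were 9 and 8, with no count over all genes set beside them here. With the block and no fold threshold they were 17 and 14 (4479 and 4058 of all genes), and 1 gene (ADAM12) also passed for BMP4 against -GFs (27 of all genes). Leaving out 1 array shifted the pathway counts too, in fits that leave 1 array in a group. The cause of these shifts was not tested.

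The changes of sign all concerned values near 0. ERBB2 with BMP4 against -GFs was -0.016 under median scaling and -0.070 to 0.19 when 1 array was left out (-0.070 without -GFs replicate 1). Under the same omission ERBB2 ranged from -0.075 to 0.28 with FGF2 against -GFs (-0.027 without -GFs replicate 1, -0.075 without FGF2 replicate 2) and from -0.14 to 0.22 against BMP4 (-0.14 without FGF2 replicate 2, -0.010 without BMP4 replicate 1). With BMP4 against -GFs, where both lay near or under the detection limit, HBEGF ranged from -0.15 to 0.10 (0.10 without -GFs replicate 2, 0.063 without BMP4 replicate 1) and BTC from -0.18 to 0.073 (0.073 without BMP4 replicate 1). EGFR ranged from -0.41 to 0.14 with FGF2 against BMP4 (0.14 without FGF2 replicate 1). A group reduced to 1 array was assumed to vary like the others. Median scaling called 208 genes higher of 417 with FGF2, against 271 of 419. Signals near the background limit HBEGF, BTC, NRG1 and EPGN.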
